A study of Mus musculus with 16 samples.

Results

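The set described here holds 7 genes that end the light response of rod photoreceptors and restore the dark state, chosen by symbol from the 45594 genes of the authors' expression table: Grk1, Sag and Rcvrn, which act on light-activated rhodopsin, and Gucy2e, Gucy2f, Guca1a and Guca1b, which make cyclic GMP or control its synthesis. The measurements are RNA levels in rods of mice aged 3, 12, 18 and 24 months (3M, 12M, 18M and 24M), with 4 libraries per age and 16 in all. All 4 ages came from C57BL/6J mice of the Nrlp-GFP reporter strain, which carries green fluorescent protein under the Nrl promoter, active in rods. Rods were flow sorted from retina by this reporter at a purity above 98% on resorting, per the labels. The labels' protocol also names Nrl-KO mice with the reporter, but each of the 16 libraries is labelled as the reporter strain and was taken as such. The labels give no other difference between the ages in genotype or treatment, and the sources used here do not say whether a library is 1 mouse or a pool. The p-values therefore measure the spread between these libraries. The design asks which RNAs of rods change as the animal ages.

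When a rod absorbs light, activated rhodopsin is phosphorylated by rhodopsin kinase (Grk1) and then capped by rod arrestin (Sag), which ends its signalling. Recoverin (Rcvrn) is a calcium sensor that holds the kinase back while calcium is high in the dark. Light lowers cyclic GMP and calcium, upon which the guanylate cyclase activating proteins (Guca1a and Guca1b) switch on the membrane guanylate cyclases GC-E (Gucy2e) and GC-F (Gucy2f), and new cyclic GMP reopens the channels of the outer segment.

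The 7 genes lie at 6 places in the mouse genome (GRCm38, GENCODE annotation). Grk1 (ENSMUSG00000031450) spans chr8:13405081-13421951 on the plus strand, and Sag (ENSMUSG00000056055) spans chr1:87803680-87845158, also on the plus strand. Gucy2e (ENSMUSG00000020890) lies at chr11:69218117-69237036 and Gucy2f (ENSMUSG00000042282) at chrX:142081160-142196931, both on the minus strand. Guca1b (ENSMUSG00000023979, chr17:47385393-47392967, plus strand) and Guca1a (ENSMUSG00000023982, chr17:47394558-47400584, minus strand) face each other with 1590 bases between their ends. Rcvrn (ENSMUSG00000020907, chr11:67695326-67703333, plus strand) lies with its whole span of 8008 bases inside Glp2r, a gene on the opposite strand, without a base of shared exon. Glp2r held 7825 estimated counts per library on average, and the sources used here do not give the strand setting of the counting.

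RefSeq promoter windows (build GRCm38.p6, the 250 bases before each gene's start) were matched by symbol for 5 of the 7 genes: Sag, Grk1, Gucy2e, Guca1a and Gucy2f. They were searched on both strands for TAATCC, the core bound by the photoreceptor homeodomain factor CRX. They were also searched for TGCTGA, a core of the sites bound by NRL. No 2 matches overlapped. TAATCC stood in 4 of the 5 windows, against 6.25% of 32851 RefSeq windows of this length, and Gucy2f held 2 copies, at 84 and 59 bases before the start. The single copies stood 87 bases before the start in Sag, 42 in Gucy2e and 57 in Guca1a, and the window of Grk1 held none. TGCTGA stood in the window of Sag alone among the 5, against 16.1% of all windows. A match describes letters and is not a measured binding site. The windows of the most abundant member, Sag, and of both cyclases are shown, and a link of these letters to RNA levels was not tested. Capitals mark the matches to both motifs, as read on the gene's strand.

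Sag upstream window, chr1:87803430-87803679, plus strand: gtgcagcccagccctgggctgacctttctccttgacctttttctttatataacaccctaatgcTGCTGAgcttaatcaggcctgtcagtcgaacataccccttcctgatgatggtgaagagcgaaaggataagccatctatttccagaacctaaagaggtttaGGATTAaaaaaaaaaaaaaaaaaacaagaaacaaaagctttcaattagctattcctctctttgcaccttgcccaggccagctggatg

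Gucy2e upstream window, chr11:69237023-69237272, minus strand: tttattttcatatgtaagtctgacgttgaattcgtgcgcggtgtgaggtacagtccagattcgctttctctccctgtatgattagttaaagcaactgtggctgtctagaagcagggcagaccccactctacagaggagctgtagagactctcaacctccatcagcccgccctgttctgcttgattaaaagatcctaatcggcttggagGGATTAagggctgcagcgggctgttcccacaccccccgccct

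Gucy2f upstream window, chrX:142196937-142197186, minus strand: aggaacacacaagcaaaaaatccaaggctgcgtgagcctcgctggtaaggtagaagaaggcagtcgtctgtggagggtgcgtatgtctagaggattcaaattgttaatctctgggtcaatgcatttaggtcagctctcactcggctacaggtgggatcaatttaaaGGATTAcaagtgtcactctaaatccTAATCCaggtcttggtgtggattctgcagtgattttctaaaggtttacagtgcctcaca

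Facts of the libraries come first, since they touch every value. A library held 20579144 to 28791777 estimated counts, and a member held at least 6294 (Gucy2f) and at most 156653 (Sag) of them. All 10 rod markers were found at a mean of at least 5 CPM (library-scaled counts, here with TMM factors), and their sum ranged from 15611 to 17266 CPM at 3M and from 12531 to 15495 at 24M, without overlap. Gnat1 was the most abundant gene of that sum. Of single genes, 5.32% had no overlap in this direction. Summed markers of other cell types were lower: 12 cone genes ranged from 160 to 191 CPM at 3M and from 185 to 238 at 24M, 12 Müller glia genes from 195 to 320 and from 271 to 381, and 12 bipolar cell genes from 256 to 300 and from 228 to 286. In the same order of ages, 10 amacrine and horizontal cell genes from 126 to 150 and from 109 to 143, 8 endothelial genes from 41.5 to 55.8 and from 48.9 to 57.8, 8 ganglion cell genes from 12.1 to 23.6 and from 15.2 to 26.5, 8 microglia genes from 9.34 to 10.7 and from 10.8 to 13.2, and 8 pigment epithelium genes from 5.78 to 8.60 and from 5.07 to 6.80. At 12M and 18M the rod sum ranged from 13933 to 16981 and from 13327 to 14846 CPM, and the cone sum from 142 to 240 and from 169 to 203. The Müller glia sum ranged from 214 to 539 CPM at 12M and from 232 to 370 at 18M, and the endothelial sum from 45.7 to 73.6 and from 48.1 to 52.9, so both had their highest library at 12M. The microglia sum also did not overlap between 3M and 24M and was higher at 24M. Of the 8 microglia genes 5 averaged under 1 CPM, and of the 8 pigment epithelium genes 6 did. None of the markers of any list was at 0 in all libraries. Their part in the members' values was not tested. The libraries 12M replicate 4, 18M replicate 3 and 24M replicate 3, which the authors' normalized table lacks, often stood at the edge of their age. The sources used here give no reason for their absence, and results are also given without them, in a fit of 13 libraries. In bulk RNA, fewer cells of a type and less RNA per cell cannot be told apart.

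All 7 genes passed the filter of at least 5 CPM in at least 4 libraries. Per length, in TPM averaged over the 16 libraries, Sag was the most abundant at 1939 and ranked 46 among all genes. Guca1a followed at 558 TPM (rank 136), Grk1 at 442 (rank 157), Rcvrn at 331 (rank 190) and Guca1b at 288 (rank 220). The cyclases were the least abundant, Gucy2e at 82.3 TPM (rank 669) and Gucy2f at 40.3 (rank 1507). Over the libraries of 24M, Guca1a ranged from 578 to 657 TPM, Grk1 from 413 to 532, Rcvrn from 281 to 310 and Guca1b from 273 to 313. Rcvrn and Guca1b thus overlapped there, and Guca1a lay above Grk1 without overlap. At 3M Guca1a ranged from 452 to 619 TPM and also stood above the highest Grk1 library, at 437. Gucy2e ranged from 61.1 to 81.3 TPM at 3M and lay above the highest Gucy2f library, at 35.2.

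Across age, the RNA of Rcvrn fell in a linear fit, a call that depended on single libraries, as given below. No other member was called in any comparison with edgeR on all 16 libraries without covariates. The fall was 1.32-fold over the 21 months in a fit of age as a linear term (-0.0191 ± 0.00510 log2 per month, SE; edgeR quasi-likelihood test, adjusted p = 0.0372). It was the call of 1 of 7 members in that fit, where 4.80% of the 12177 genes tested were called in either direction and 1.95% were called lower. In all other comparisons 0 of 7 members were called with edgeR on all 16 libraries without covariates. Of all genes tested, any difference among the 4 ages called 2.82%, 24M against 3M 4.25%, 18M against 3M 2.64%, 12M against 3M 1.39%, 18M against 12M 0.00821%, and 24M against 18M 0%. At an unadjusted p under 0.05 the count was 2 of 7 (Sag and Rcvrn) for any age, the linear term, 24M against 3M and 18M against 3M, where the background was 10.8%, 14.6%, 14.0% and 12.4% of genes. It was 1 of 7 (Sag) for 12M against 3M, where it was 9.15%. It was 0 of 7 for 18M against 12M (background 2.23%) and for 24M against 18M (5.58%). DESeq2 called 1 member for 24M against 3M (Rcvrn), where it called 6.34% of all genes, and 1 for 18M against 3M (Sag), where it called 4.34%. It called 0 for 12M against 3M (background 2.57%), 18M against 12M (0.0985%) and 24M against 18M (0.287%).

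Rcvrn, the calcium-dependent brake on the kinase, stood at 557, 584, 558 and 548 CPM in the 3M libraries (replicates 1 to 4). The 12M libraries had 452, 448, 460 and 581 CPM, those of 18M 496, 513, 394 and 473, and those of 24M 355, 438, 500 and 386. Every library of 18M and 24M was below every library of 3M, and at 12M 3 of the 4 were, with replicate 4 inside the 3M range. No overlap in the lower direction occurred in 6.46% of all genes at 18M against 3M and in 5.32% at 24M against 3M. TPM divides counts by transcript length before scaling each library, and has no TMM factors, which here ranged from 0.952 to 1.046. In TPM Rcvrn ranged from 327 to 377 at 3M. At 18M it overlapped that range (290 to 380 TPM), and at 24M it lay below it (281 to 310). The mean of 562 ± 15.6 CPM at 3M was followed by 485 ± 64.2 (12M), 469 ± 52.4 (18M) and 420 ± 63.5 (24M; SD, n = 4). The log2 fold change at 24M against 3M was -0.42 ± 0.12 (SE), 1.34-fold lower, and missed the threshold with edgeR (adjusted p = 0.0593). It passed in the 13 libraries (-0.51, edgeR adjusted p = 0.000247), where 23.6% of all genes did, and with the libraries' length slope as covariate (-0.33, 0.00183), where 11.4% did. It also passed when 24M replicate 3 (-0.52, 0.0146), 12M replicate 4 (-0.42, 0.0253) or 18M replicate 3 (adjusted p = 0.0434) was left out alone. In that order, these fits called 5.24%, 5.95% and 4.21% of all genes. The linear call in turn was lost when any one of 8 libraries was left out, namely each of the 3M libraries, 18M replicate 4 and 24M replicates 1, 2 and 4, with adjusted p up to 0.118, and with no expression filter (0.0901), where 1.89% of 33433 genes were called. A fit with the replicate number as a block also called 0 members in the linear term, where 4.05% of all genes were called.

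Sag, the arrestin of rods, stood at 5436, 5909, 5384 and 5528 CPM at 3M. The 12M libraries had 4831, 4487, 4585 and 5224 CPM, those of 18M 4476, 4753, 4001 and 4917, and those of 24M 4403, 4719, 5410 and 4338. All libraries of 12M and 18M were below all of 3M, where 2.67% and 6.46% of genes had no overlap in this direction, and at 24M replicate 3 alone reached the 3M range. In TPM, which scales libraries by counts per length and without TMM factors, the Sag libraries of all ages overlapped. They ranged from 1905 to 2188 TPM at 3M, 1559 to 2220 at 12M, 1506 to 2181 at 18M and 1759 to 2139 at 24M. In order of age the means were 5564 ± 237, 4782 ± 329, 4537 ± 401 and 4718 ± 491 CPM (SD, n = 4). Against 3M the log2 fold changes were -0.22 for 12M, -0.29 for 18M and -0.24 for 24M (SE 0.10 each), with edgeR adjusted p of 0.541, 0.192 and 0.285. Sag therefore lay 1.18-fold lower at 24M without passing the test on all 16 libraries, and the 95% interval of that change ran from -0.46 to -0.016. In the 13 libraries it was called at 24M (-0.31, edgeR adjusted p = 0.00972) and at 12M (-0.26, 0.0151), but not at 18M (-0.24, 0.0805), where 23.6%, 38.4% and 5.85% of all genes were called. With the length slope as covariate the 12M value was -0.12 (edgeR adjusted p = 0.552).

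Grk1, the kinase itself, did not differ detectably with age. The 3M libraries had 4034, 4820, 4613 and 4770 CPM and those of 24M 4396, 4636, 5238 and 4270. At 12M they ranged from 4413 to 4528 CPM and at 18M from 4064 to 4809, so that all ages overlapped. Means were 4559 ± 361, 4478 ± 53.9, 4506 ± 316 and 4635 ± 430 CPM at the 4 ages (SD, n = 4). The log2 fold change at 24M against 3M was 0.024 with a 95% interval from -0.19 to 0.23, which is 1.18-fold at most, and the sign of this value changed between settings.

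**Figure D1:**
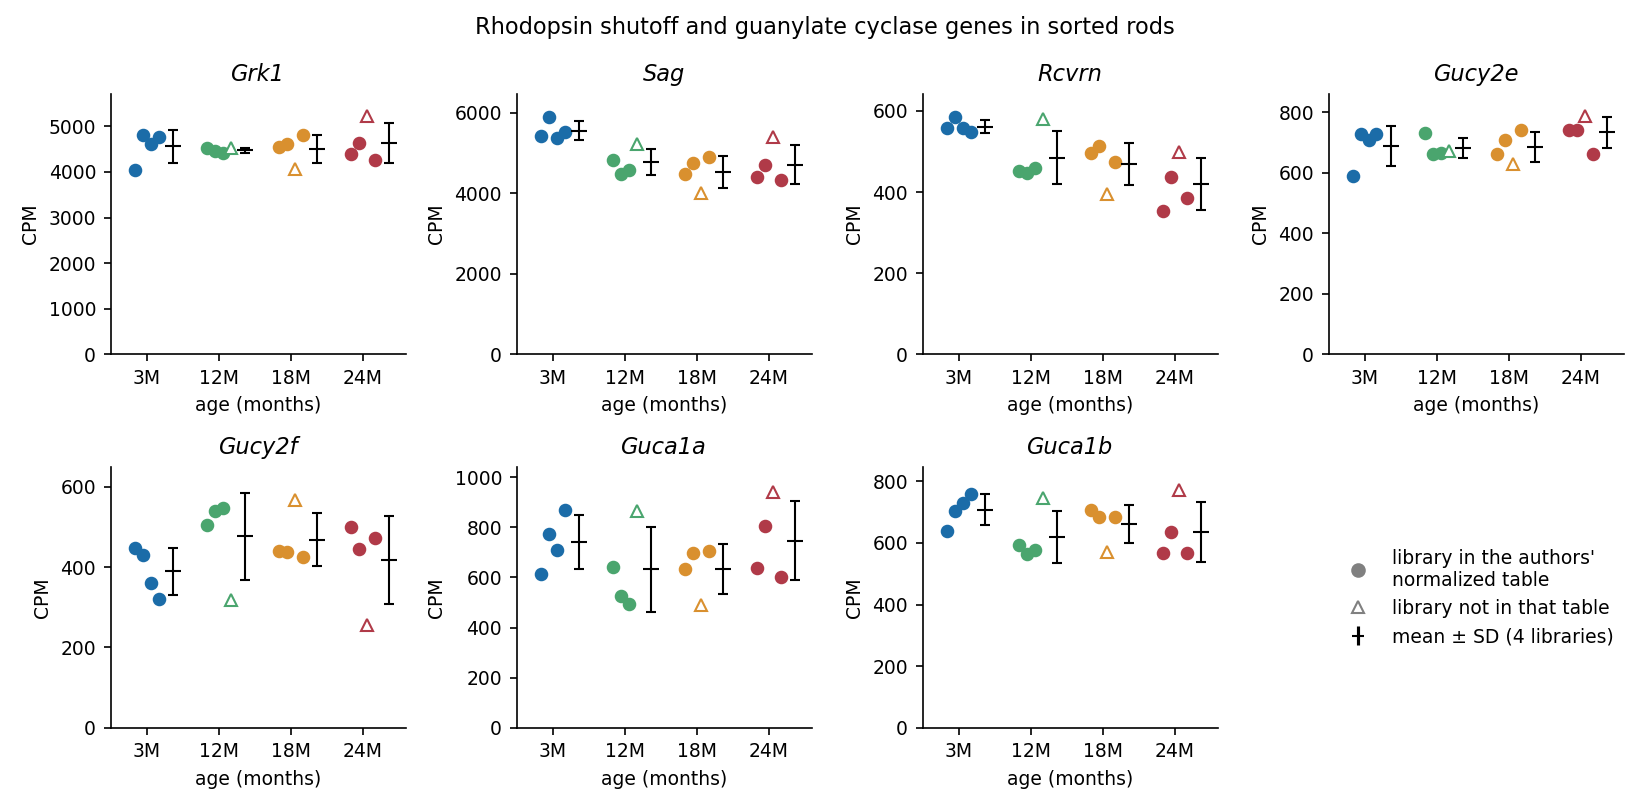
CPM (vertical axis, from 0, scaled with TMM factors) of the 7 genes by age in months. Each point is 1 library, the triangles are the 3 libraries that the authors' normalized table lacks, and the bars give the mean ± SD of 4 libraries. The Rcvrn libraries sit between 548 and 584 at 3M and between 355 and 500 at 24M, while Grk1 overlaps between all ages.

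Neither cyclase was called with edgeR on all 16 libraries in any comparison of ages. Gucy2e, the main cyclase of photoreceptors, had 589, 729, 710 and 729 CPM in the 3M libraries, 732, 662, 667 and 674 in those of 12M, 662, 708, 628 and 743 in those of 18M, and 741, 743, 789 and 664 in those of 24M. The libraries of all ages overlapped, with means of 689 ± 67.4, 684 ± 32.7, 685 ± 50.4 and 734 ± 51.6 CPM (SD, n = 4). At 24M against 3M its log2 fold change was 0.091 ± 0.090 (SE; 95% interval -0.11 to 0.29; edgeR adjusted p = 0.766). Gucy2f, the second cyclase, had 446, 431, 361 and 322 CPM in the 3M libraries, 504, 539, 547 and 318 in those of 12M, 440, 439, 566 and 426 in those of 18M, and 499, 444, 255 and 473 in those of 24M. It varied most of the 7 genes between libraries, with 2.22-fold between the lowest and the highest, both of which (24M replicate 3 and 18M replicate 3) are among the 3 libraries named above. Its log2 fold changes against 3M were 0.29 for 12M, 0.26 for 18M and 0.099 for 24M (SE 0.20 each; edgeR adjusted p 0.695, 0.639 and 0.913), and the interval at 24M ran from -0.35 to 0.54. In the 13 libraries Gucy2f was called at 12M (0.44, edgeR adjusted p = 0.00521, where 38.4% of all genes were) and for any age (where 29.0% were). Sample quality weights in limma also called Gucy2f at 12M (0.46, adjusted p = 0.00234), where 47.9% of all genes were called. With the length slope as covariate its values were -0.038 for 12M, 0.079 for 18M and -0.13 for 24M, so the direction turned for 12M and 24M.

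Among the calcium-dependent activators, Guca1a had 616, 772, 712 and 869 CPM in the 3M libraries, 643, 526, 493 and 866 in those of 12M, 633, 700, 491 and 708 in those of 18M, and 638, 807, 940 and 604 in those of 24M. Its libraries overlapped between all ages, and the log2 fold change at 24M against 3M was 0.010 ± 0.19 (SE; 95% interval -0.40 to 0.42; edgeR adjusted p = 0.992). That value was -0.12 in the 13 libraries and 0.16 with the length slope as covariate, and neither was called. Guca1b had 639, 704, 731 and 760 CPM in the 3M libraries, 592, 564, 577 and 746 in those of 12M, 708, 686, 571 and 686 in those of 18M, and 566, 635, 772 and 569 in those of 24M. At 24M 3 of 4 Guca1b libraries were below all 3M libraries and replicate 3 was above them all. The Guca1b log2 fold change at 24M against 3M was -0.16 ± 0.12 (SE; edgeR adjusted p = 0.656), and -0.26 in the 13 libraries (0.0181), where it was called. With the length slope as covariate it was -0.065 (edgeR adjusted p = 0.516). In the 13 libraries 12M against 3M called 5 of 7 members (Rcvrn, Guca1b, Guca1a, Gucy2f and Sag), in a fit that called 38.4% of 12050 genes.

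**Figure D2:**
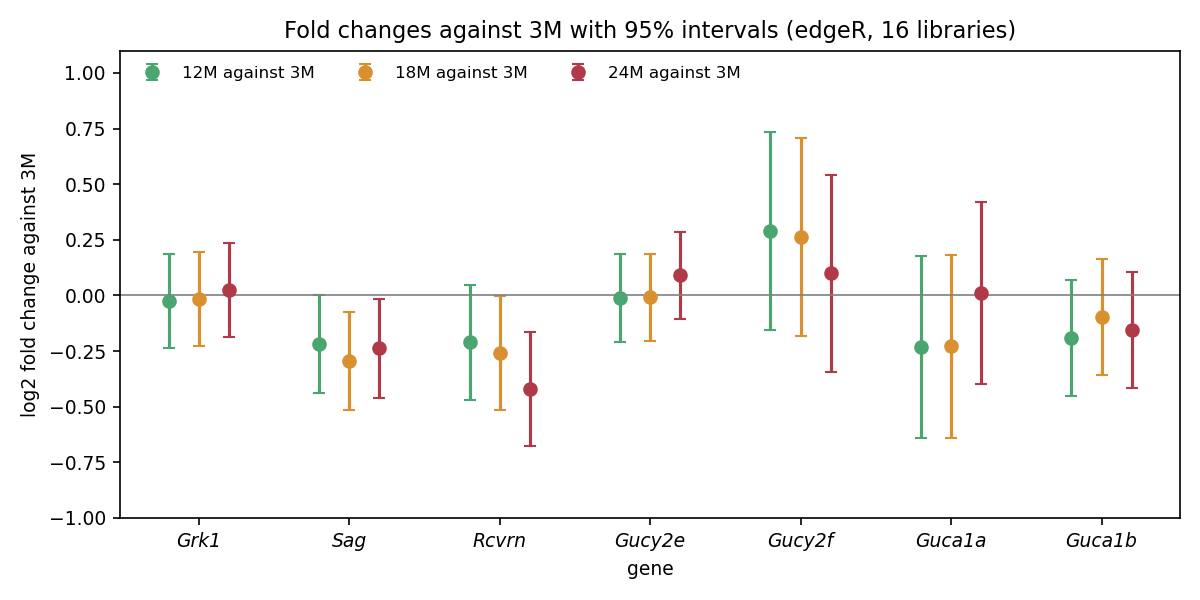
Log2 fold change of each gene against 3M (points) with its 95% interval (bars), from the edgeR fit of all 16 libraries, for 12M, 18M and 24M. The Rcvrn value at 24M (-0.42) lies farthest from 0, and the intervals of Gucy2f and Guca1a are the widest.

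In the authors' deposited table, which compares ages over 11826 genes, 26.7% of genes and 4 of the 7 members had an adjusted p under 0.05. Its headers do not name the libraries it used. The authors' deposited table gives Rcvrn a log2 difference of -0.52 at 24M against 3M (adjusted p = 0.00122 over the ages), Sag -0.33 (0.00933), Guca1b -0.25 (0.0117) and Gucy2f 0.29 (0.0202). The other members in the authors' deposited table were Guca1a (-0.12, 0.0786), Gucy2e (0.046, 0.791) and Grk1 (-0.036, 0.834). The 4 members under the threshold there are thus Rcvrn, Sag and Guca1b with lower values at 24M and Gucy2f with a higher one. Their adjusted p is for any difference over the ages and not for 24M alone. At 12M and 18M the authors' log2 differences were 0.46 and 0.17 for Gucy2f and -0.29 and -0.027 for Guca1b. They were -0.31 and -0.19 for Rcvrn and -0.29 and -0.25 for Sag.

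Ratios between partner genes within a library do not depend on library scaling. The ratio of Grk1 to Rcvrn counts, kinase to its brake, was 7.24, 8.25, 8.27 and 8.71 at 3M and 12.4, 10.6, 10.5 and 11.1 at 24M. The 24M libraries all lay above the 3M libraries, and how many ratios of other genes did so was not counted. In order of age the means were 8.12 ± 0.623, 9.34 ± 1.06, 9.65 ± 0.676 and 11.1 ± 0.883 (SD, n = 4). The log2 difference between 24M and 3M was 0.46 (exact permutation test, two-sided p = 0.0286, the smallest 4 against 4 libraries can give; adjusted over 4 ratios 0.114). Guca1a to Guca1b, the 2 activators, was 1.04 ± 0.0892 (3M) and 1.17 ± 0.0928 (24M; exact permutation p = 0.143, adjusted 0.286). Gucy2e to Guca1a, cyclase to activator, was 0.935 ± 0.0673 and 1.01 ± 0.150 (p = 0.514 by exact permutation, adjusted 0.686). Gucy2e to Gucy2f, the 2 cyclases, was 1.81 ± 0.403 and 1.91 ± 0.794 (p = 0.943 by exact permutation, also after adjustment), and the single 24M library at 3.09 was replicate 3. Without it the log2 difference was -0.23 in place of 0.029. No ratio passed the threshold after adjustment. At 24M against 3M the log2 fold change was -0.42 for Rcvrn and 0.024 for Grk1 in the same libraries. The Grk1 to Rcvrn ratio is thus not a measurement separate from that of Rcvrn.

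**Figure D3:**
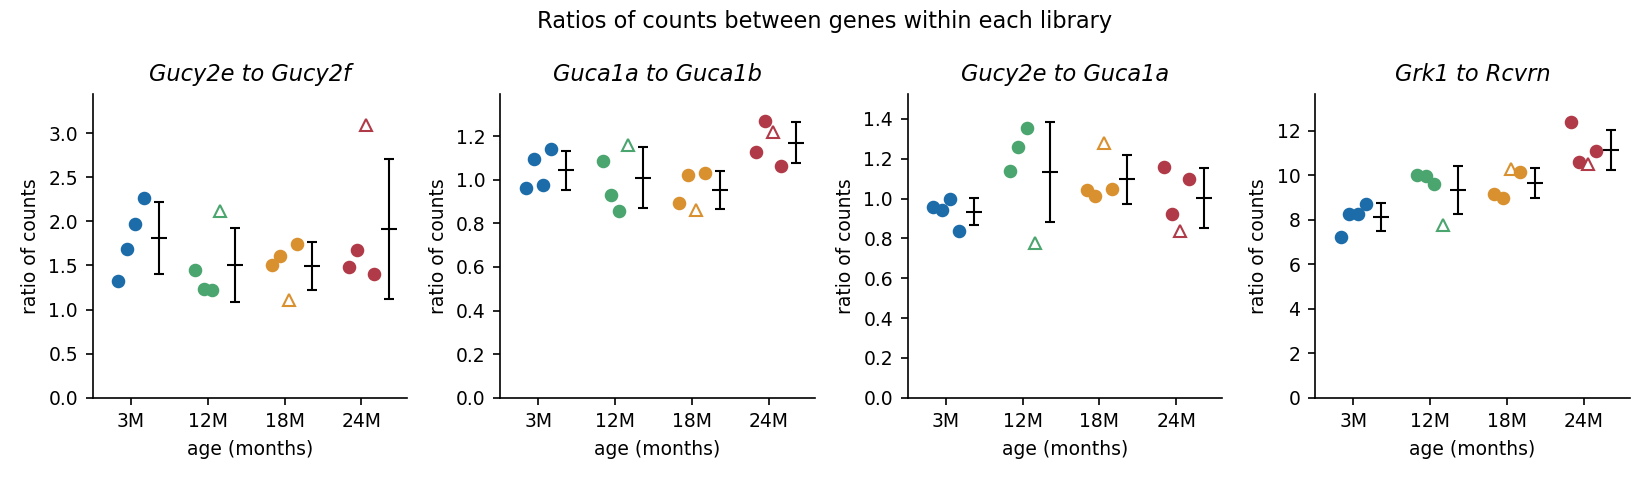
Ratio of estimated counts between 2 genes (vertical axis, from 0) in each library by age in months; points are libraries, triangles the 3 libraries that the authors' normalized table lacks, bars the mean ± SD of 4 libraries. The Grk1 to Rcvrn ratio lies between 7.24 and 8.71 at 3M and between 10.5 and 12.4 at 24M, and the other 3 ratios overlap between these ages.

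How tightly pairs of members kept together over the 16 libraries is described by the SD of their log2 ratio, without a test. Grk1 and Gucy2e were the tightest pair at 0.054, although their gene products act on different steps. Sag and Guca1b followed at 0.116 and Sag and Rcvrn at 0.120. Gucy2f stood apart from every other member: its 6 pairs had the 6 widest SDs, from 0.379 with Gucy2e to 0.584 with Guca1a. Among 10285 protein-coding genes, those with the steadiest ratio to a member were Ambra1 and Zfp609 for Grk1 (SD 0.048 each, against a median gene at 0.203), Wipf2 (0.046) and Traf3 (0.051) for Gucy2e (median 0.214), and Dop1a (0.051) and Zfp709 (0.053) for Gucy2f (median 0.372). For Sag they were Rdh12 (0.061), a retinol dehydrogenase of photoreceptors, and Bpnt1 (0.069; median 0.219), and for Rcvrn H3f3a (0.066) and Nxnl1 (0.067; median 0.264), the latter the gene of rod-derived cone viability factor. For Guca1a they were Sap30bp (0.063) and Cdkn2aipnl (0.076; median 0.312), and for Guca1b Scnm1 (0.054) and Usp30 (0.057; median 0.222).

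The members' levels also moved with a property of the libraries, the slope of log2 CPM on transcript length (change per doubling of length, less the mean over libraries). In order of age the slope ranged from -0.041 to -0.016, from -0.047 to 0.075, from -0.044 to 0.084 and from -0.081 to 0.049, so the later ages spread more widely. Gucy2f, with one of the longest transcripts of the 7 (8122 bases), was higher where the slope was higher (n = 16 libraries, Pearson r = 0.871, permutation p = 2e-05, adjusted over 10 relations 0.0001; Spearman rho = 0.897, p = 2e-05). Guca1b (r = -0.929, permutation p = 1e-05, the smallest the permutations can give; rho = -0.900, p = 1e-05; adjusted 0.0001 for both) and Guca1a (r = -0.854, permutation p = 8e-05, adjusted 0.000267; rho = -0.812, p = 0.00029, adjusted 0.000967) were lower there. Gucy2e did not pass (r = -0.384, permutation p = 0.139, adjusted 0.14; rho = -0.297, p = 0.261, adjusted 0.29), although its mean length over transcripts, 6906 bases, is near that of Gucy2f. Their GC content differs, at 54.6% for Gucy2e and 42.0% for Gucy2f. Without the 2 libraries farthest from the median slope r was 0.845 for Gucy2f, -0.945 for Guca1b, -0.755 for Guca1a and -0.192 for Gucy2e. Rcvrn had r = -0.759 (permutation p = 0.00075, adjusted 0.00187; rho = -0.762, p = 0.00097, adjusted 0.00194; r = -0.779 without those 2), Sag r = -0.752 (permutation p = 0.00094, adjusted 0.00188; rho = -0.688, p = 0.00415, adjusted 0.00692; -0.678) and Grk1 r = -0.661 (permutation p = 0.00495, adjusted 0.00707; rho = -0.626, p = 0.0113, adjusted 0.015; -0.575). Slopes and levels come from the same values, so part of each relation is built in. Grk1, lower at higher slope, has a transcript of 7425 bases. Members also differ in GC content, 42.0% for Gucy2f and from 49.1% (Grk1) to 55.7% (Guca1a) for the others. The libraries' slope on GC content (log2 units per 10 percentage points) was lowest in 18M replicate 3 (-0.294) and highest in 24M replicate 3 (0.505). In other libraries, such as 18M replicate 2 (length slope -0.044, GC slope -0.026), the 2 slopes had the same sign. The length slope was highest in 18M replicate 3 (0.084) and lowest in 24M replicate 3 (-0.081), the reverse of the GC slope. Gucy2f was highest and lowest in these 2 libraries, respectively. Relations of the members with the GC slope were not tested, and the relations above do not separate length from GC content. No batch is named in the labels, so no value within batches can be given.

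**Figure D4:**
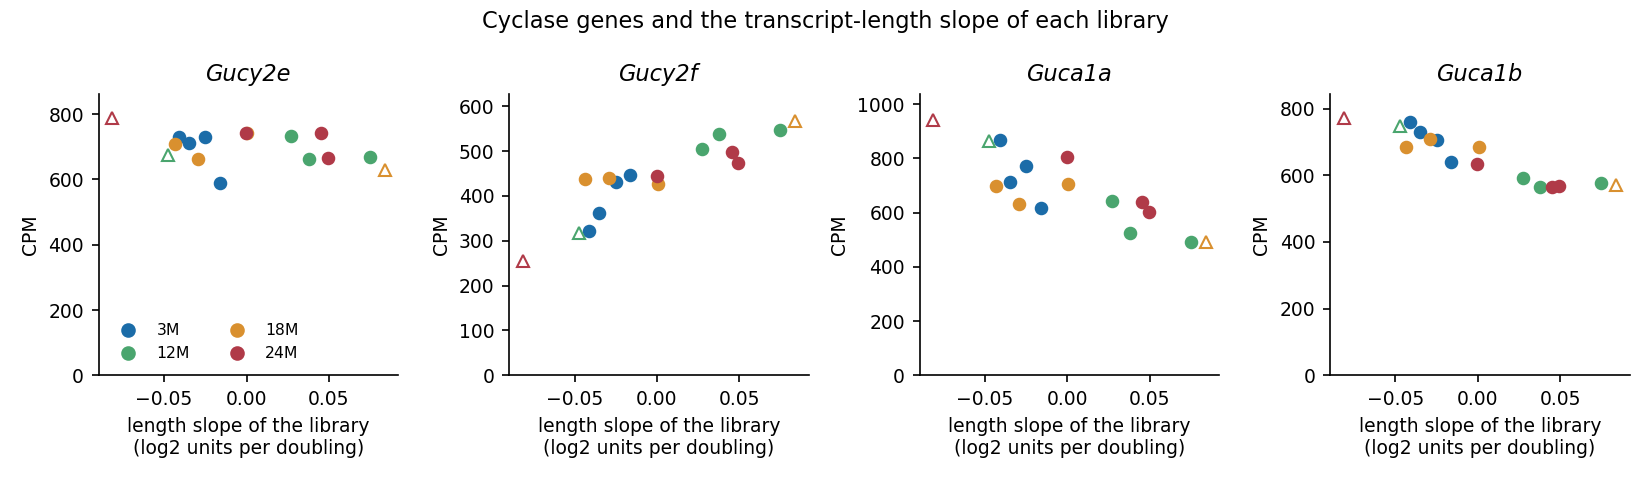
CPM (vertical axis, from 0) of the cyclase and activator genes against the length slope of the library (log2 units per doubling of transcript length); each point is 1 of 16 libraries, coloured by age, and triangles are the 3 libraries that the authors' normalized table lacks. Gucy2f is higher and Guca1a and Guca1b are lower in libraries of high slope, and Gucy2e shows little of either (r = -0.384).

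Of the 7 genes, 4 (Grk1, Rcvrn, Gucy2f and Guca1a) are counted on 1 transcript each, and Sag, Gucy2e and Guca1b also on transcripts that keep intron sequence: here, a transcript other than the most counted coding one that has an exon reaching at least 50 bases into an intron. The coding transcript ENSMUST00000077772 held 69.6% of the Sag counts over all libraries, and ENSMUST00000128761, which keeps the whole of intron 11 (2573 bases), held 12.4% (mean 10.4% at 3M and 14.1% at 24M). It is 1 of 6 intron-holding transcripts of Sag, and the others keep only parts of introns 6, 9 or 12. The Sag share given below sums all 6. For Guca1b the transcript ENSMUST00000145462, which keeps the whole of intron 3 (773 bases), held 31.9%, and the annotation types it as protein-coding, like the most counted transcript of that gene. For Gucy2e the transcript ENSMUST00000155457, which reaches 852 bases into intron 11, held 7.53%. The splice sites that these transcripts read through are shown from the GENCODE transcripts (GRCm38), 30 bases to each side with the intron in capitals; each donor begins with GT and the acceptor of Sag ends with AG.

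Sag intron 11 donor, chr1:87831947-87832006, plus strand: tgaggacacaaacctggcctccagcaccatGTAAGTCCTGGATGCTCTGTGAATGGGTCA

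Sag intron 11 acceptor, chr1:87834520-87834579, plus strand: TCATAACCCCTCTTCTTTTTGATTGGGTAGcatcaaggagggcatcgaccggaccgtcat

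Guca1b intron 3 donor, chr17:47391072-47391131, plus strand: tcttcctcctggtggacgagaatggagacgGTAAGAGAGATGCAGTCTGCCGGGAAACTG

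Gucy2e intron 11 donor, chr11:69227457-69227516, minus strand: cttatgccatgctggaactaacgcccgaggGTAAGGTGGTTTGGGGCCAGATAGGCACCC

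The share of Sag counts in intron-holding transcripts was 23.5%, 24.3%, 26.6% and 26.3% in the 3M libraries and 38.7%, 31.7%, 30.3% and 36.6% at 24M. All 24M libraries lay above all 3M libraries, which 4.93% of 5901 genes with such transcripts also had in this direction and 1.64% in the other. In order of age the means were 25.2% ± 1.49, 30.2% ± 6.26, 31.0% ± 3.86 and 34.3% ± 3.99 (SD, n = 4). The difference between 24M and 3M was 9.15 percentage points (exact permutation test, two-sided p = 0.0286, the smallest possible; adjusted over 3 genes 0.0857), against a median of 0.554 points over the 5901 genes, of which 0.881% had a larger one. Without 24M replicate 3 it was 10.5 points (exact permutation p = 0.0571, the smallest that 3 against 4 libraries can give). In Guca1b the share was 28.2%, 26.7%, 32.7% and 27.6% at 3M and 36.7%, 32.4%, 33.6% and 35.5% at 24M, overlapping by the third 3M library alone. The Guca1b difference was 5.74 points (exact permutation p = 0.0571, adjusted 0.0857), and 4.42% of genes had a larger one. In Gucy2e the share was 7.22% ± 0.712 (3M) and 8.36% ± 0.958 (24M; SD, n = 4), a difference of 1.14 points (exact permutation p = 0.114), which 38.6% of genes exceeded. Since 63.6% of the 5901 genes had a higher mean share at 24M, a higher mean at 24M was the common direction.

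The share is an estimate, because the counts divide reads among transcripts that overlap. It also moved with the length slope of the library, with r = 0.741 for Sag over 16 libraries (permutation p = 0.00118, adjusted 0.00197; rho = 0.788, p = 0.00051, adjusted 0.00127; r = 0.740 without the 2 farthest libraries) and r = 0.604 for Guca1b (permutation p = 0.014, adjusted 0.0175; rho = 0.621, p = 0.012, adjusted 0.015; 0.550), but not detectably for Gucy2e (r = -0.387, permutation p = 0.14, adjusted 0.14; rho = -0.138, p = 0.612, adjusted 0.612; -0.233). The part of the slope in the shares at 24M against 3M was not tested. Counted on the most counted coding transcript alone, Sag had 4139 ± 219 CPM (3M) and 3087 ± 500 CPM (24M; SD, n = 4), a ratio of 0.746, where the libraries of 3M (3929 to 4442) and 24M (2671 to 3747) did not overlap, as for 4.13% of 22898 transcripts in this direction. The most counted coding transcript of Guca1b, ENSMUST00000024774, stood at 504 ± 38.5 and 417 ± 71.5 CPM. That of Gucy2e, ENSMUST00000021259 (65.9% of the counts, beside the coding ENSMUST00000108664 with 26.5%), stood at 457 ± 45.6 and 493 ± 28.0.

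**Figure D5:**
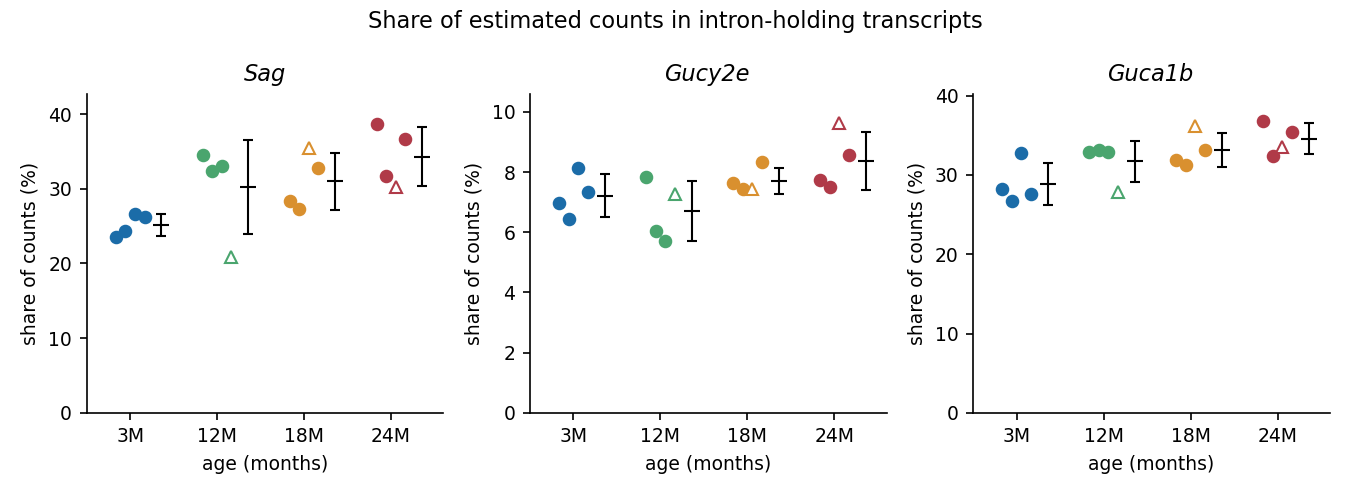
Share of estimated counts in intron-holding transcripts (vertical axis, percent of the gene's counts, from 0) by age in months for the 3 genes that have such transcripts; points are libraries, triangles the 3 libraries that the authors' normalized table lacks, bars the mean ± SD of 4 libraries. The Sag share lies between 23.5% and 26.6% at 3M and between 30.3% and 38.7% at 24M.

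The other genes of the light response were read from lists around the members, with 24M against 3M and the linear term tested as above. Of 9 genes of activation, from transducin to the channel, 1 was called lower at 24M and 0 higher, where 1.60% of all genes tested were called lower and 2.65% higher. All 9 values were below 0, with a median log2 fold change of -0.24 against 0.011 over all genes tested. The called gene was Gngt1, the gamma subunit of rod transducin, with 1175 ± 82.8 CPM (3M) and 861 ± 78.3 CPM (24M; SD, n = 4; log2 -0.45 ± 0.12 SE, edgeR adjusted p = 0.0376), and the linear term also called Gnb1, its beta subunit (edgeR adjusted p = 0.046). Of 4 genes of transducin shutoff and buffering, 1 was called lower: Pdc, phosducin, which binds transducin beta and gamma subunits, fell from 2099 ± 293 to 1109 ± 163 CPM (log2 -0.92 ± 0.13 SE, edgeR adjusted p = 0.000408). The median of those 4 was -0.11.

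Of 9 partners of the cyclases and the kinase, 0 were called in either direction. All 9 values were below 0 with a median of -0.20, and the most abundant, Unc119, stood at 756 ± 64.2 and 642 ± 137 CPM (edgeR adjusted p = 0.63). Receptor kinases and arrestins beyond the members had 7 genes tested of 8 found (some of the 10 entries are older symbols), 0 called and a median of 0.049, with Grk4 the most abundant (64.7 ± 14.8 CPM at 3M, 85.0 ± 26.4 at 24M). Only 2 of 8 other guanylate cyclase genes and 3 of 10 neuronal calcium sensors related to recoverin passed the expression filter, with 0 called in each. Gucy1a1 stood at 5.89 ± 2.66 and 7.09 ± 1.56 CPM and Hpcal1 at 43.0 ± 3.63 and 44.4 ± 7.43. Among the members, the 3 genes of phosphorylation and arrestin had a median log2 fold change of -0.24 and the 4 genes of the cyclase branch one of 0.051. The rod markers and the activation genes share Gnat1, Gngt1, Cnga1, Cngb1, Pde6a and Pde6g, so their summed levels are not separate measurements.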

How the data were processed

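RNA of sorted mouse rods was measured in 16 libraries, 4 per age. The authors deposited estimated counts per transcript; kallisto 0.42.5, limma 3.32.2 and edgeR 3.13.9 are named, without their roles, per the submitters' processing notes. The authors also deposited a CPM signal per gene (library totals of 936588 to 1055611), a normalized CPM signal of 13 libraries, and a table of comparisons with log2 differences, an F score and p-values per the file headers. The sources used here do not give the annotation and strand setting behind the counts. The input was 4 ng of RNA, amplified in 13 PCR cycles per the labels' protocols, so reads are not independent molecules.

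Here 111896 of 113468 transcripts were matched to GENCODE (GRCm38), the rest holding 0.73% to 1.08% of a library's counts, and sums over the transcripts of 45038 genes were rounded to whole counts. Tests used edgeR 4.0.16 (quasi-likelihood, TMM, R 4.3.3) on the 12177 genes that reached 5 CPM in 4 or more libraries, all 16 libraries sharing 1 estimate of the spread. P-values were adjusted by Benjamini-Hochberg over all of them, and genes under 0.05 are called. Ratios and shares used exact permutation tests, and relations across libraries 100000 permutations. TPM used transcript lengths of the annotation. The fit was tested on simulated data.

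All 7 members are named; of each list, the called genes (up to 4), or else the most abundant one; of likeness, the 2 protein-coding genes with the steadiest ratio. Members and lists were chosen with earlier results of these data known, and the intron-holding share and the relations with the length slope were chosen after the values were seen. Alternatives were DESeq2 1.42.0, limma 3.58.1 (voom, with and without quality weights, or the authors' CPM with pseudocounts of 0.5 and 2), other size factors, filters of 1 CPM or none, the compared ages alone, 13 libraries, length or GC slopes as covariates, a replicate block, and each library left out.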

Additional observations from a re-analysis of the deposited data

Results flagged for a closer look

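In 56 groups of 4 libraries (an age's CPM, shares or ratios of a member), 10 held a library far from the other 3 (a gap above Dixon's 95% critical value). By chance about 1 in 20 groups would hold one, and the groups share libraries. At 12M, replicate 4 stood apart with Rcvrn at 581.2 CPM and Guca1b at 746.4 CPM, both the highest of that age, and with intron-holding shares of 20.93% for Sag and 27.88% for Guca1b, both the lowest. At 18M, replicate 3 had the highest Gucy2f at 566.2 CPM, the lowest Guca1b at 570.6 CPM and the highest Gucy2e to Guca1a ratio at 1.28. At 24M, replicate 3 had the highest Gucy2e to Gucy2f ratio at 3.093. These are the 3 libraries that the authors' normalized table lacks. The other 2 values were both of Gucy2e, the lowest of 3M in replicate 1 at 589.1 CPM and the highest of 12M in replicate 1 at 732.2 CPM.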

How the results depend on the processing

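The number of members called changed with the setting. With the share of all genes called in parentheses, sample quality weights called 5 members for any age (44.6%), 2 for the linear term (Rcvrn and Sag; 19.6%), 3 at 24M against 3M (Rcvrn, Guca1b and Sag; 27.2%), 1 at 18M against 3M (Sag; 9.12%), 5 at 12M against 3M (47.9%), 3 at 18M against 12M (19.2%) and 2 at 24M against 18M (4.76%). The 13 libraries called 4 for any age (29.0%), 2 for the linear term (8.57%), 3 at 24M against 3M (23.6%) and 5 at 12M against 3M (38.4%). In the order any age, linear term, 24M and 18M against 3M, the length slope as a covariate called 1, 2, 1 and 1 (7.23%, 9.59%, 11.4% and 5.44%) and the GC slope 3, 2, 3 and 1 (14.5%, 18.3%, 20.3% and 9.07%). DESeq2 called 1 at 24M (6.34%) and 1 at 18M against 3M (4.34%), and no filter called 0 for the linear term (1.89%). Leaving out 1 library gave 0 to 2 calls for the linear term (3.06% to 6.92%) and 0 to 1 at 24M against 3M (2.99% to 5.95%). The cause of these changes was not tested.

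These log2 fold changes against 3M changed sign. Grk1 was 0.053 (length slope), 0.021 (GC slope) and -0.081 to 0.0014 (1 library out) at 12M, 0.030, 0.029 and 0.031 (13 libraries, length slope, GC slope) and -0.072 to 0.030 at 18M, and -0.070 (quality weights), -0.039 (13 libraries) and -0.040 to 0.062 at 24M. Gucy2e was 0.00033 (DESeq2), 0.00029 (DESeq2 size factors), 0.044 (length slope), 0.022 (GC slope) and -0.080 to 0.016 at 12M, and 0.031, 0.024, 0.026 (13 libraries, length slope, GC slope) and -0.077 to 0.031 at 18M. With the length slope Gucy2f was -0.038 at 12M (0.29 on all libraries without it) and -0.13 at 24M, Guca1a 0.010 at 12M (-0.23 without it) and Guca1b 0.0014 at 18M, where the GC slope gave Guca1b 0.0095. Guca1a at 24M was -0.16 (quality weights), -0.0076 (minimum of 1 CPM), -0.0023 (no filter), -0.023 (authors' CPM, both pseudocounts), -0.12 (13 libraries) and -0.12 to 0.10. Gucy2e to Gucy2f was -0.23 in the 13 libraries and -0.23 to 0.15 with 1 library out.

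The Grk1 to Rcvrn log2 ratio was 0.48 in the 13 libraries and 0.40 to 0.49 with 1 library out, and the Sag share difference 10.5 and 7.68 to 10.5 points; fewer libraries cannot give an exact p below 0.0571. Same-numbered libraries had correlations of mixed sign (from -0.744 to 0.726, 11 of 24 over 0.1), and whether the numbers pair samples cannot be told from them. With the replicate block 0 members were called in the linear term, and the exact p of the Grk1 to Rcvrn log2 ratio (0.46) and of the Sag share (9.15 points) was 0.125, the smallest the block allows.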
